A study of Mus musculus with 15 samples.

Results

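The endothelial junction genes are 9 genes that encode proteins of the border between neighboring endothelial cells. They were chosen by name, out of 53465 genes in the table of normalized counts, as *Cdh5*, *Pecam1*, *Cldn5*, *Esam*, *Jam2*, *Jam3*, *F11r*, *Ocln* and *Tjp1*. Earlier results of these data were known at the choice, and the paper reports *Pecam1*, *Cldn5* and *Esam* as higher in D (differentiated cells). The counts of called genes set against all genes below are therefore a description. Every one of the 9 had a mean of at least 5 normalized counts and was among the 25549 genes tested. A normalized count is the number of reads on a gene divided by a factor for the depth of its library.

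Endothelial cells hold on to each other through adherens junctions and tight junctions that lie intermingled along the same border. *Cdh5* (VE-cadherin) is the cadherin of endothelial adherens junctions and is tied to actin through catenins. *Pecam1* (CD31) and *Esam* are immunoglobulin-type adhesion molecules of the same border. *Cldn5* is the main claudin of endothelial tight junctions, *F11r* (JAM-A), *Jam2* (JAM-B) and *Jam3* (JAM-C) are the junctional adhesion molecules, *Ocln* (occludin) is a 4-pass membrane protein of tight junctions, and *Tjp1* (ZO-1) is the scaffold that holds several of these tails through its PDZ domains. Their presence sets how tightly a vessel wall is closed to solutes and leukocytes.

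The series examined the endothelial hierarchy of a mouse melanoma. CAG-GFP transgenic mice, which express GFP in all their cells, were injected with B16-F0 melanoma cells, a line derived from a mouse melanoma, and tumors were collected at day 15. The methods give the mice of the study as males and females of 8 to 14 weeks, with no sex or age for a single library. GFP+ cells negative for lineage markers and positive for CD34 were sorted into endovascular progenitors (EVP, CD31lo VEGFR2lo), transit amplifying cells (TA, CD31int VEGFR2lo) and definitive differentiated cells (D, CD31hi VEGFR2hi), with 5 libraries for each population. All 3 groups carried the CAG-GFP transgene and a B16-F0 tumor without further treatment, and no tumor-free group is among the libraries. The sort read CD31, so the order of *Pecam1* across the populations was set by the gate and is given as a description. The labels do not say whether libraries came from separate animals or whether the libraries of 1 number share an animal, so the p-values measure the spread between these libraries, which may be in part technical.

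The 15 libraries held 5394356 to 26513073 reads on genes, and the limit of 3 reads corresponded to 1.81 to 10.5 normalized counts. The libraries with number 1 stood apart. They held fewer reads on genes (5394356 to 12456809, against 13145822 to 26513073 in the other 12), and 8.50% to 10.6% of their reads fell on *Gm10800*, against at most 0.701% elsewhere. Of 1406 olfactory receptor genes, 75.9% to 96.2% held a read in number 1, and 2.70% to 65.1% in the other 12. The share was 55.4% in EVP library 2, 51.7% in TA library 2 and 65.1% in TA library 3. In libraries 4 and 5 it was 2.70% to 4.55%. The part of such reads in genes with low counts, such as *Ocln*, was not tested. Results that rest on these libraries, or on TA library 5, are given with and without them.

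The proteins meet at the tails of the membrane proteins, where the last residues bind PDZ domains of scaffolds such as ZO-1 and MAGI-1. The ends of the coding sequences are shown because the comparison below turns on genes whose products share this kind of contact and yet differ in transcript change. Each run holds the last 11 codons and the stop codon of the principal transcript in GENCODE release M21 (build GRCm38), 5′ to 3′, with the 4 codons before the stop codon in capitals. All are exonic coding sequence, and that of *Jam2* crosses an exon boundary.
*Cldn5* (chr16:18777617-18777652, plus strand): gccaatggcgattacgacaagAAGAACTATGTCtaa
*F11r* (chr1:171463059-171463094, plus strand): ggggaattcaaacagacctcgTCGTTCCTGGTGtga
*Jam2* (chr16:84821300-84822819, plus strand): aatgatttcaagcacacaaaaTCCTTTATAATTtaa
*Jam3* (chr9:27098366-27098401, minus strand): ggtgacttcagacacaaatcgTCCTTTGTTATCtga
*Esam* (chr9:37537747-37537782, plus strand): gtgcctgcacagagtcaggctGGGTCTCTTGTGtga

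Between EVP and D, 6 of the 9 junction genes were higher in D and none was called lower. The 6 were *Cdh5*, *Pecam1*, *Cldn5*, *Esam*, *F11r* and *Tjp1*, at 7.50- to 166-fold by the ratio of the group means. *Pecam1* enters the counts and medians here and in the comparisons with TA below, although the gate set its order. *Cdh5*, *Cldn5*, *Esam*, *F11r* and *Tjp1* do not encode CD31 or VEGFR2, the proteins by which the populations were separated. Across the 15 libraries their Pearson's r with *Pecam1*, on log2(normalized count + 1), was 0.942 to 0.993. Their calls are therefore not independent of the sort. Among all genes tested 7.46% were higher in D and 11.6% were higher in EVP (limma on log2(normalized count + 1), adjusted p under 0.05 over all genes). The median log2 difference, D minus EVP, was 5.17 over the 9 genes and -0.46 over all genes tested. Of the 9 genes, 7 did not overlap between the 5 libraries of D and the 5 of EVP with D higher, against 7.52% of all genes tested. *Jam2* was the gene that separated without passing the adjusted threshold. In these bulk libraries, fewer cells of a type and less RNA of a gene per cell cannot be told apart.

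*Cdh5*, the adherens junction cadherin (chr8:104101625-104144511, plus strand), had normalized counts of 49.2, 18.3, 22.1, 89.5 and 183 in EVP libraries 1 to 5. In D libraries 1 to 5 it had 9246, 10010.2, 7196, 13383 and 9254. Every D library lay far above every EVP library, and *Cdh5* was low but read in each EVP library, by 14 to 264 reads. The means were 72.3 ± 67.9 in EVP and 9818 ± 2251 in D (SD, n = 5 each), a 136-fold difference. On the log2 scale the difference was 7.54 ± 0.79 (SE, limma adjusted p = 1.61e-06).

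*Cldn5*, the endothelial claudin (chr16:18776847-18778260, plus strand), had the largest ratio of the D to the EVP mean of the 9 genes. In EVP its normalized counts were 21.1, 1.31, 22.1, 67.1 and 76.8. In D they were 2956, 6174, 9557, 8204 and 4461. The groups did not overlap, and EVP library 2 held a single read of *Cldn5*. The ratio of the means was 166, and the log2 difference was 7.98 ± 0.99 (SE, limma adjusted p = 1.03e-05).

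*Esam*, an adhesion molecule of endothelial borders and platelets (chr9:37528078-37538319, plus strand), was at 204, 43.1, 97.4, 409 and 1134 normalized counts in EVP. Its values in D were 17831, 17187, 19953, 30448 and 24292. EVP library 5 was the highest of its group, and the lowest D library was still far above it. The log2 difference was 6.67 ± 0.63 (SE, limma adjusted p = 5.08e-07), a 58.1-fold ratio of means. Without EVP library 5, the ratio of means was 117 for *Esam* and 219 for *Cdh5*. *Pecam1* (chr11:106654217-106750628, minus strand) was at 119 to 613 in EVP, with 613 in library 5 and 225 or less in the other libraries, and at 19114 to 32189 in D. Its ratio of means was 93.2, or 141 without EVP library 5, and it is the transcript of the protein by which the cells were gated.

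The 3 junctional adhesion molecules differed among themselves. *F11r* (chr1:171437535-171464603, plus strand) was at 140.4, 256, 378, 456 and 342 normalized counts in EVP and at 8357, 10410.2, 9949, 11359 and 13365 in D. The populations were fully separate, with a 34.0-fold ratio of means and a log2 difference of 5.17 ± 0.44 (SE, limma adjusted p = 1.57e-07). Its adjusted p was the smallest of the 9 genes in this comparison.

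*Jam2* (chr16:84774123-84825928, plus strand) had normalized counts of 481, 653, 473, 646 and 324 in EVP and 689, 1491, 824, 1223 and 1104 in D. All 5 D libraries were above all 5 EVP libraries, by a 2.07-fold ratio of means. The log2 difference of 1.04 ± 0.37 (SE) did not pass the threshold (limma adjusted p = 0.058), and it passed in 11 of 27 alternative analyses, among them DESeq2 (adjusted p = 0.0312) but not edgeR (adjusted p = 0.054). The 95% interval of the difference was 0.27 to 1.81.

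*Jam3* (chr9:27097384-27155421, minus strand) was the most even of the 9 genes. It had normalized counts of 365, 431, 288, 355 and 353 in EVP, 341, 339, 247, 259 and 374 in TA, and 427, 463, 462, 576 and 453 in D. The EVP and D libraries overlapped, and the log2 difference between D and EVP was 0.41 ± 0.20 (SE, limma adjusted p = 0.183, 95% interval from just below 0 to 0.83). An annotated gene on the opposite strand, *Gm48796*, shares 1159 exonic bases with *Jam3*, and the library kit does not mark strand, so their reads cannot be told apart there. *Gm48796* had a mean of 25.6 normalized counts. How reads on the shared bases were counted is not known. The levels per kilobase and JAM shares below divide by all 3200 exonic bases of *Jam3*, so they carry this limit.

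**Figure D1:**
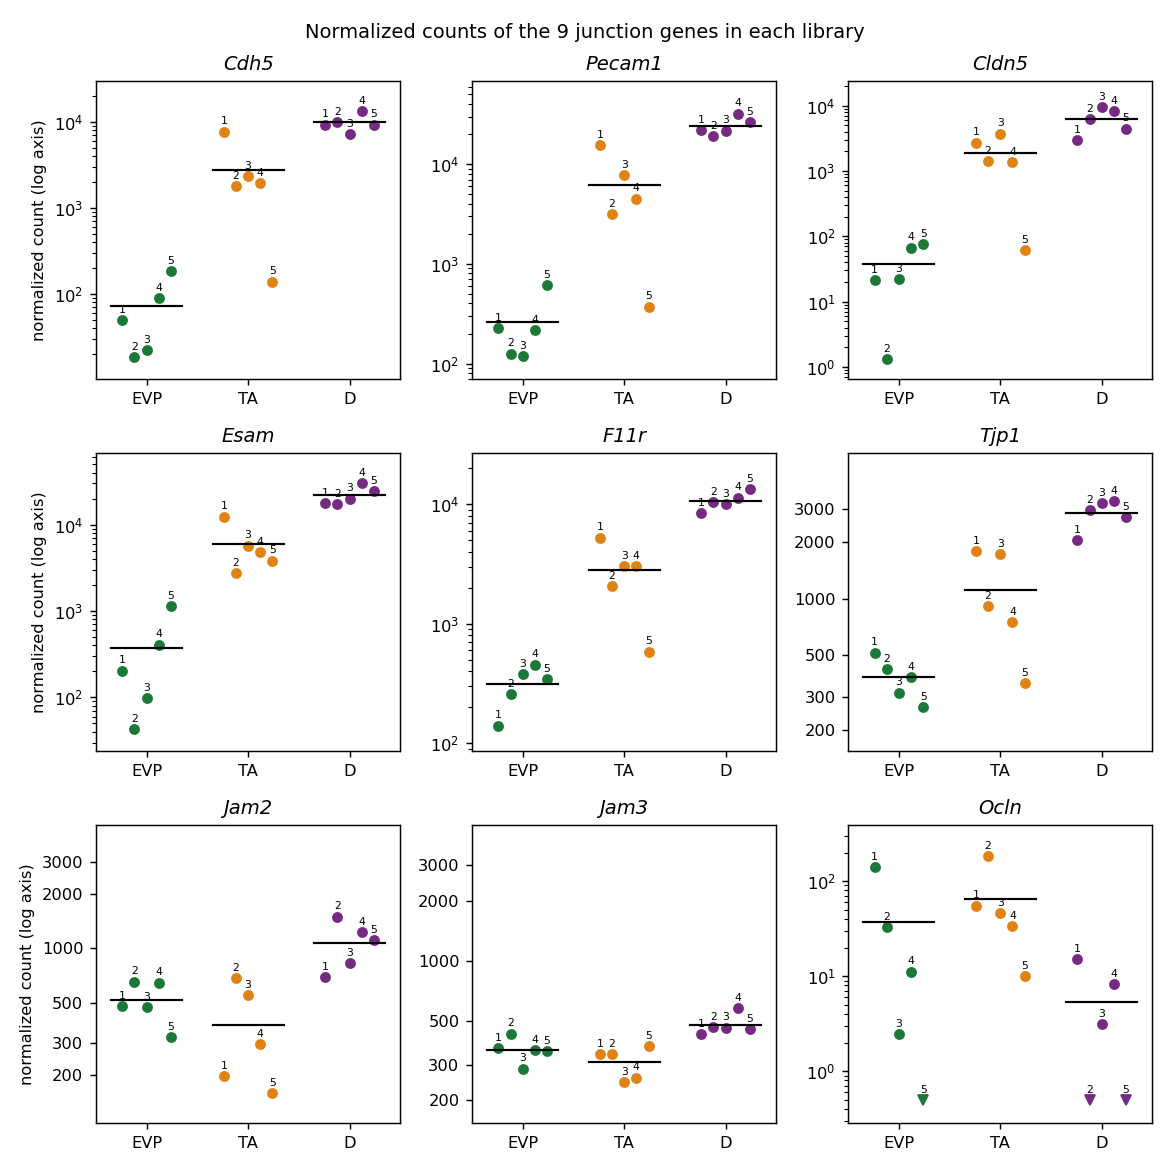
Normalized counts (log axes that differ between panels) of the 9 junction genes in EVP, TA and D. Points are libraries labeled with their replicate number, black bars are group means, and triangles at the bottom of the *Ocln* panel are libraries with 0 reads. For *Cdh5*, *Pecam1*, *Cldn5*, *Esam*, *F11r* and *Tjp1* all D libraries lie above all EVP libraries, and TA library 5 is the lowest TA library for all of these but *Esam*.

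Per length, the JAM sum was spread over 3 genes in EVP, in shares that differed between libraries, and had 1 dominant member in D. Normalized counts were divided by the exon length of each gene in kilobases, and the 3 genes were expressed as shares of their sum in each library. *F11r* took 21.4%, 28.4%, 45.8%, 44.0% and 43.9% of the JAM sum in EVP libraries 1 to 5. In D it took 92.7%, 90.9%, 93.0%, 91.8% and 93.9%. The share was higher in D than in EVP in all libraries (mean 92.5% ± 1.16 against 36.7% ± 11.1, SD, n = 5 each, exact two-sided permutation test, p = 0.00794, the smallest p that 5 against 5 allows). TA libraries held 60.5% to 93.4%, with TA library 5 the lowest, and none overlapped EVP (exact two-sided permutation test, p = 0.00794, n = 5 each). Between TA and D the shares of *F11r* overlapped, with a mean of 81.8% ± 13.1 in TA (SD, n = 5, exact two-sided permutation test, p = 0.0476). These are 3 of 9 such tests, 3 for each gene, without adjustment. The mean shares of *Jam2* were 27.0%, 6.19% and 4.05%, and those of *Jam3* 36.3%, 12.1% and 3.48%, in EVP, TA and D. Over the EVP libraries *Jam2* took 18.4% to 32.3% and *Jam3* 28.5% to 46.3%. *Jam2* and *Jam3* together made up 36.9% ± 13.6 (SD, n = 5) of the summed level per kilobase of all 9 genes in EVP and 1.43% ± 0.28 (SD, n = 5) in D.

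**Figure D2:**
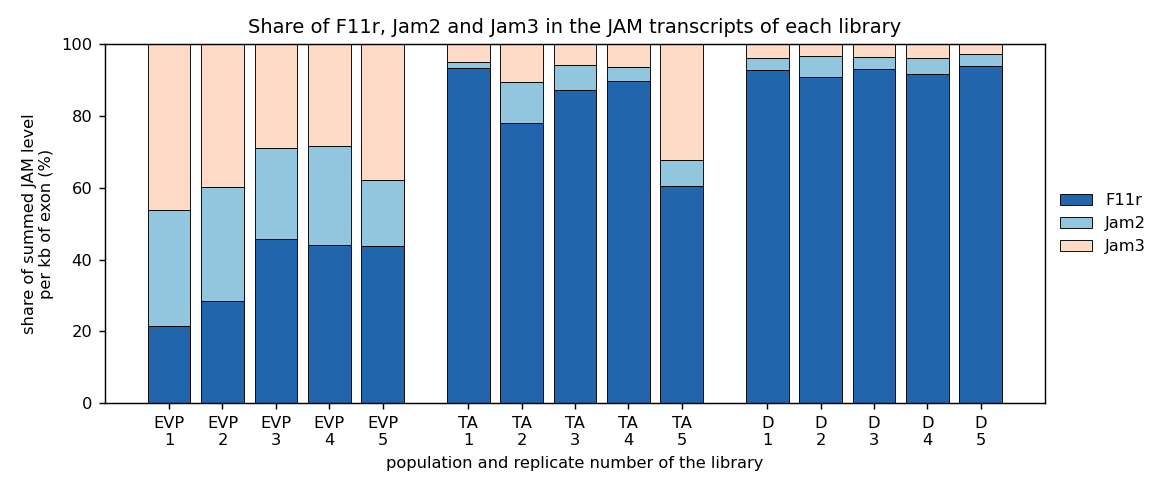
Share (%) of *F11r*, *Jam2* and *Jam3* in their summed level per kilobase of exon, 1 bar per library, grouped by population and numbered by replicate. *F11r* takes 21.4% to 45.8% in EVP, 60.5% to 93.4% in TA and 90.9% to 93.9% in D.

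The scaffold and occludin took different courses. *Tjp1* (chr7:65296165-65527781, minus strand) was at 516, 422, 316, 383 and 264 normalized counts in EVP and at 2061, 2963, 3231, 3299 and 2711 in D. The 2 groups were separate, with a 7.50-fold ratio of means and a log2 difference of 2.92 ± 0.35 (SE, limma adjusted p = 7.47e-06). *Tjp1* was thus read in every EVP library at 264 normalized counts or more.

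*Ocln* (chr13:100496507-100552718, minus strand) was close to the limit of reading in D. It had normalized counts of 140.4, 32.7, 2.45, 11.2 and 0 in EVP, 55.2, 183, 45.8, 33.7 and 9.96 in TA, and 15.1, 0, 3.13, 8.26 and 0 in D. Only 11, 0, 4, 11 and 0 reads lay behind the D values, and 2 of the 5 EVP libraries held 3 reads or fewer. EVP and D overlapped (log2 difference, D minus EVP, -1.67 ± 1.22, SE, limma adjusted p = 0.455), and the spread within EVP was larger than the difference. Transcripts of *Ocln* were therefore not a regular part of the D libraries at this depth.

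**Figure D3:**
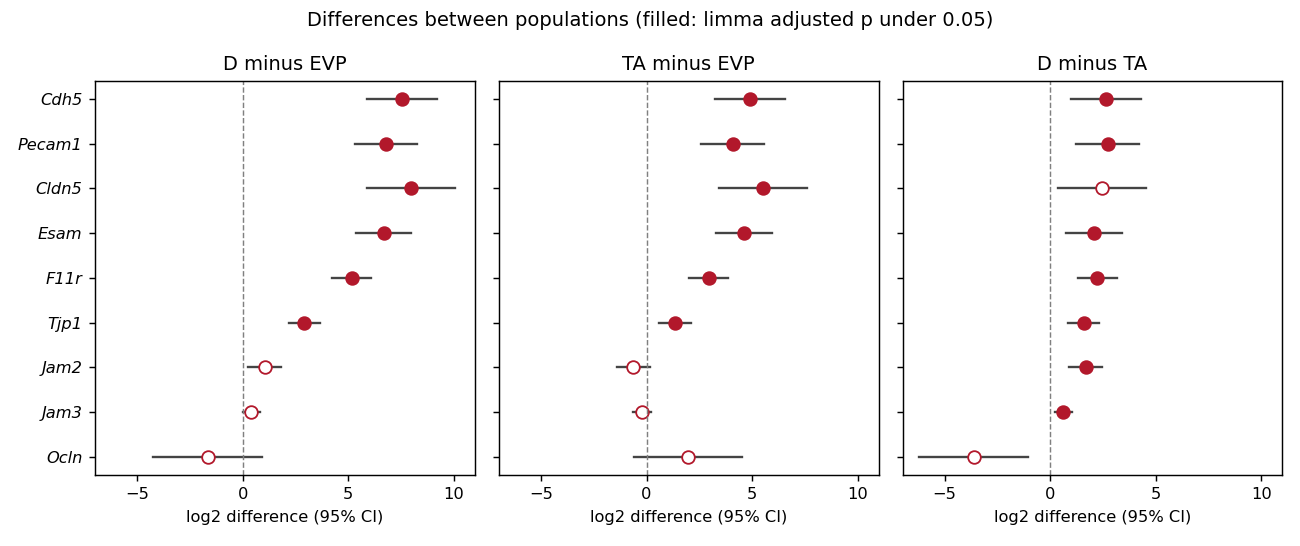
Log2 differences of the 9 junction genes between populations, D minus EVP, TA minus EVP and D minus TA, each with its 95% interval from limma. Filled points passed an adjusted p under 0.05. The 6 upper genes are filled in the first 2 panels, and *Ocln* lies below 0 in the first and the third.

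For 4 of the 9 genes the promoter was in the RefSeq table of build GRCm38.p6, and the bases before the start site are shown because these 4 include genes that were higher in D (*Cldn5*, *F11r*, *Tjp1*) and 1 that was not (*Ocln*). The windows cover the 250 bases before the start, and that of *F11r* is cut to 224 bases where an annotated exon begins. That of *Tjp1* lies inside the annotated gene, outside its exons. Capitals mark GGGCGG, the core of an Sp1 site, on either strand. For *Ocln*, which has 2 start sites in the table, the upstream one is shown.
*Cldn5* (chr16:18776597-18776846, plus strand): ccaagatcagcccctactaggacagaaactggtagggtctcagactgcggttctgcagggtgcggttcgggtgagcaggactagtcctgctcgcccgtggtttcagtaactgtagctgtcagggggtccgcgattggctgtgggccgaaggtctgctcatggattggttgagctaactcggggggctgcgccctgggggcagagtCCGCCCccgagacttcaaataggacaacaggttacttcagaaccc
*F11r* (chr1:171437311-171437534, plus strand): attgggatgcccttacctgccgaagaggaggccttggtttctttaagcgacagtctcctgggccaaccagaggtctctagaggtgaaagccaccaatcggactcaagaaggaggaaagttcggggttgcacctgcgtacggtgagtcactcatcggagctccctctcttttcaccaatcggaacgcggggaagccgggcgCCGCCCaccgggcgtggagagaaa
*Tjp1* (chr7:65371245-65371494, minus strand): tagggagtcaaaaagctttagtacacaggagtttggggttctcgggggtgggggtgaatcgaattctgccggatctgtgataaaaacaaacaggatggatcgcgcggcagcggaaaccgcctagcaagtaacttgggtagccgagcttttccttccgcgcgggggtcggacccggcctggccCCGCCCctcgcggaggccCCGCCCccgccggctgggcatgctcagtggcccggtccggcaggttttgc
*Ocln* (chr13:100552719-100552968, minus strand): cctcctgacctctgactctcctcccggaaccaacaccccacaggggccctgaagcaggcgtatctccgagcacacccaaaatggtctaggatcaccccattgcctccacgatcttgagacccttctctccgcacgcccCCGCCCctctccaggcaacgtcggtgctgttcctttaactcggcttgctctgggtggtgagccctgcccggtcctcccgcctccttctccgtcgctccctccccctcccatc

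The Sp1 core was present in all 4 windows, once in *Cldn5*, *F11r* and *Ocln* and 2 times in *Tjp1*, and in 32.72% of the 32817 windows of 250 bases in the table. The core of an ETS site (GGAAG, either strand) was found once in *F11r* and once in *Tjp1*, and in 64.06% of all windows. The core of a SOX site (ACAAT, either strand), present in 27.67% of all windows, was not found in the 4 windows shown. Nor was a GATA site (AGATAA, either strand), which 9.99% of all windows held. A TATA box, written TATAAA and present on either strand in 12.37% of all windows, was absent from the 4 as well. An E box (CANNTG) was found once in *F11r*, in none of the other 3 windows shown, and in 66.22% of all windows. The motifs were searched separately, and none of these matches overlapped another. The GC content was 59.6% in *Cldn5*, 60.0% in *F11r*, 63.2% in *Tjp1* and 64.0% in *Ocln*, against a median of 52.4%. In these letters *Ocln* held the same Sp1 core as the 3 genes that were higher in D.

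TA lay between EVP and D for the 6 genes, with a wide spread. The same 6 genes were higher in TA than in EVP, by ratios of means of 2.91 (*Tjp1*) to 49.3 (*Cldn5*), and none of the 9 was called lower. Among all genes tested 1.94% were higher in TA and 1.56% were higher in EVP by the same test. The median log2 difference, TA minus EVP, was 2.94 over the 9 genes and -0.09 over all genes tested. Of the 9 genes, 2 (*Esam* and *F11r*) did not overlap between TA and EVP, against 1.59% of all genes tested. The comparisons of TA with EVP and of D with EVP share the EVP libraries.

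*Cdh5* in TA had normalized counts of 7680.3, 1785, 2357, 1942 and 138 in libraries 1 to 5, and *Cldn5* had 2727, 1416, 3721, 1367 and 61.6. *Pecam1* had 15414, 3137, 7783, 4502 and 372. Library 5 was in the range of EVP for all 3, and library 1 was the highest for *Cdh5* and *Pecam1*. The log2 differences, TA minus EVP, were 4.90 ± 0.79 for *Cdh5* (SE, limma adjusted p = 0.0034) and 5.51 ± 0.99 for *Cldn5* (SE, limma adjusted p = 0.00552).

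*Esam* in TA had 12379, 2741, 5713, 4752 and 3835 normalized counts, so that library 5 held it at a level like that of libraries 2 to 4. *F11r* had 5250.1, 2064, 3036, 3013 and 584, and *Tjp1* had 1793, 916, 1721, 749.8 and 354. For *F11r* library 5 was the lowest of the TA libraries but above all EVP libraries. The log2 differences, TA minus EVP, were 4.61 ± 0.63 for *Esam* (SE, limma adjusted p = 0.00148), 2.94 ± 0.44 for *F11r* (SE, limma adjusted p = 0.0022) and 1.35 ± 0.35 for *Tjp1* (SE, limma adjusted p = 0.0422). *Jam2* had 196, 681, 552, 295 and 158 in TA, and its log2 difference from EVP was -0.63 ± 0.37 (SE, limma adjusted p = 0.463). For *Jam3* the difference was -0.21 ± 0.20 (SE, limma adjusted p = 0.757) and for *Ocln* 1.97 ± 1.22 (SE, limma adjusted p = 0.51), and for all 3 the groups overlapped.

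The calls between TA and EVP depended on the libraries. Without the libraries of number 1 in all populations, none of the 9 genes passed (limma adjusted p 0.0546 to 0.141 for the 6 genes), and the calls over all genes went from 893 to 104. The log2 differences of the 6 genes were then 1.24 (*Tjp1*) to 5.15 (*Cldn5*). Without TA library 5 as well, all 6 passed again (limma adjusted p 0.000715 to 0.0362), in an analysis added after the data were seen. The call of *Tjp1* was lost in 15 of 27 alternative analyses, including those without TA library 1, 2, 3 or 4.

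Library 5 of TA stood apart in its markers as well. The summed level of 10 endothelial markers was 7737 normalized counts in TA library 5 and 19645 to 72139 in the other TA libraries. The sum of 6 mural cell markers (*Rgs5*, *Cspg4*, *Acta2*, *Myh11*, *Notch3*, *Kcnj8*) was 140731 in TA library 5 and 4242 to 35515 in the others. *Esam* relative to *Cdh5* in the same library was 4.78 on the log2 scale in TA library 5 and 0.62 to 1.29 in the other TA libraries. The part of mural cells in these values was not tested.

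With the EVP mean set at 0 and the D mean at 1 on the log2 scale, the TA mean was at 0.65 for *Cdh5*, 0.60 for *Pecam1*, 0.69 for *Cldn5*, 0.69 for *Esam*, 0.57 for *F11r* and 0.46 for *Tjp1*. TA library 1 was at 0.78 to 0.96 for these 6 genes. TA library 5 was at -0.02 to 0.19 for 5 of them and at 0.63 for *Esam*. The genes differed within other libraries too, with *Tjp1* at 0.35 in TA library 4 where the other 5 were at 0.65 to 0.74, and with *Cldn5* at 0.92 and *F11r* at 0.65 in TA library 3.

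Between TA and D, 7 of the 9 genes were higher in D and none was called lower, while 4.31% of all genes tested were higher in D and 8.21% were higher in TA. The 7 were *Cdh5*, *Pecam1*, *Esam*, *F11r*, *Tjp1*, *Jam2* and *Jam3*, with ratios of means of 1.53 (*Jam3*) to 3.88 (*Pecam1*). The median log2 difference, D minus TA, was 2.06 over the 9 genes and -0.24 over all genes tested. For 6 of the 9 genes the D libraries were all above the TA libraries, against 3.69% of all genes tested. This comparison shares the D libraries with that of D and EVP and the TA libraries with that of TA and EVP.

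*F11r*, *Tjp1* and *Jam2* were higher in D than in TA in all 27 alternative analyses. Their log2 differences, D minus TA, were 2.23 ± 0.44 for *F11r* (SE, limma adjusted p = 0.0023), 1.57 ± 0.35 for *Tjp1* (SE, limma adjusted p = 0.00563) and 1.67 ± 0.37 for *Jam2* (SE, limma adjusted p = 0.00494). *Jam2* thus had its highest level in D, at 1066 ± 319, with 377 ± 229 in TA and 515 ± 137 in EVP (SD, n = 5 each). *Pecam1* was higher in D in 26 of the 27, with edgeR as the exception (adjusted p = 0.0647).

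*Cdh5* (log2 difference, D minus TA, 2.64 ± 0.79, SE, limma adjusted p = 0.0352), *Esam* (2.06 ± 0.63, SE, limma adjusted p = 0.0383) and *Jam3* (0.62 ± 0.20, SE, limma adjusted p = 0.0473) passed in the fit of all libraries but in only 12 to 15 of the 27 alternatives. Without TA library 5 the difference was 1.77 for *Cdh5* (limma adjusted p = 0.0544) and 1.96 for *Esam* (limma adjusted p = 0.0799). *Cldn5* did not pass in any (log2 difference, D minus TA, 2.47 ± 0.99, SE, limma adjusted p = 0.126). Its populations overlapped, with TA library 3 at 3721 and D library 1 at 2956. *Ocln* was lower in D than in TA by the values, at a mean of 5.30 ± 6.44 against 65.5 ± 67.8 (SD, n = 5 each), and did not pass (log2 difference -3.64 ± 1.22, SE, limma adjusted p = 0.0623). It passed in 10 of the 27 alternatives, including the fits without TA library 5 and without the libraries of number 1.

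Each gene was next set against *Cdh5* in the same library, to ask which junction genes changed with the cadherin and which by less. In limma on these differences, 5 of 8 genes changed differently from *Cdh5* between EVP and D, and all 5 changed by less, while 99.4% of all genes tested differed from *Cdh5* by this test. *Cdh5* enters each of these differences with its own spread, so the test was repeated for each gene alone by an exact two-sided permutation of the 5 EVP and 5 D libraries, without adjustment, as 1 of 3 comparisons for each of the 8 genes. By that test 7 of 8 genes passed, all but *Cldn5*. The share of all genes that pass the exact test was not calculated. With 99.4% of all genes differing in limma, neither count is read as particular to the junction genes.

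*Cldn5* stayed at a like distance from *Cdh5*, at -1.18 ± 1.18 on the log2 scale in EVP and -0.74 ± 0.75 in D (SD, n = 5 each). The difference between the changes of *Cldn5* and *Cdh5* was 0.44 with a 95% interval of -1.56 to 2.45 (limma adjusted p = 0.667, exact permutation p = 0.532). The change of *Pecam1* minus that of *Cdh5* was -0.75, and that of *Esam* minus that of *Cdh5* was -0.87. For both, limma gave no call (adjusted p = 0.449 and 0.379), and the exact permutation test gave p = 0.0317 and 0.0238. The EVP and D libraries overlapped in this measure for all 3 genes.

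The change of *F11r* minus that of *Cdh5* was -2.37 on the log2 scale (95% interval -4.30 to -0.43, limma adjusted p = 0.0168, exact permutation p = 0.00794), and limma gave an adjusted p of 0.0605 without EVP library 3. *F11r* relative to *Cdh5* was 1.50, 3.74, 4.04, 2.33 and 0.90 in EVP and -0.15, 0.06, 0.47, -0.24 and 0.53 in D, with no overlap. The same difference was -4.62 for *Tjp1* (limma adjusted p = 4.13e-06), -6.50 for *Jam2* (limma adjusted p = 3.62e-10), -7.13 for *Jam3* (limma adjusted p = 1.65e-11) and -9.21 for *Ocln* (limma adjusted p = 7.17e-11), with an exact permutation p of 0.00794 for each. For these 4 the EVP libraries were all above the D libraries in this measure. The members whose coding ends are shown above, *Cldn5*, *Esam*, *F11r*, *Jam2* and *Jam3*, therefore ranged from no detected difference from *Cdh5* to nearly none of its change.

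**Figure D4:**
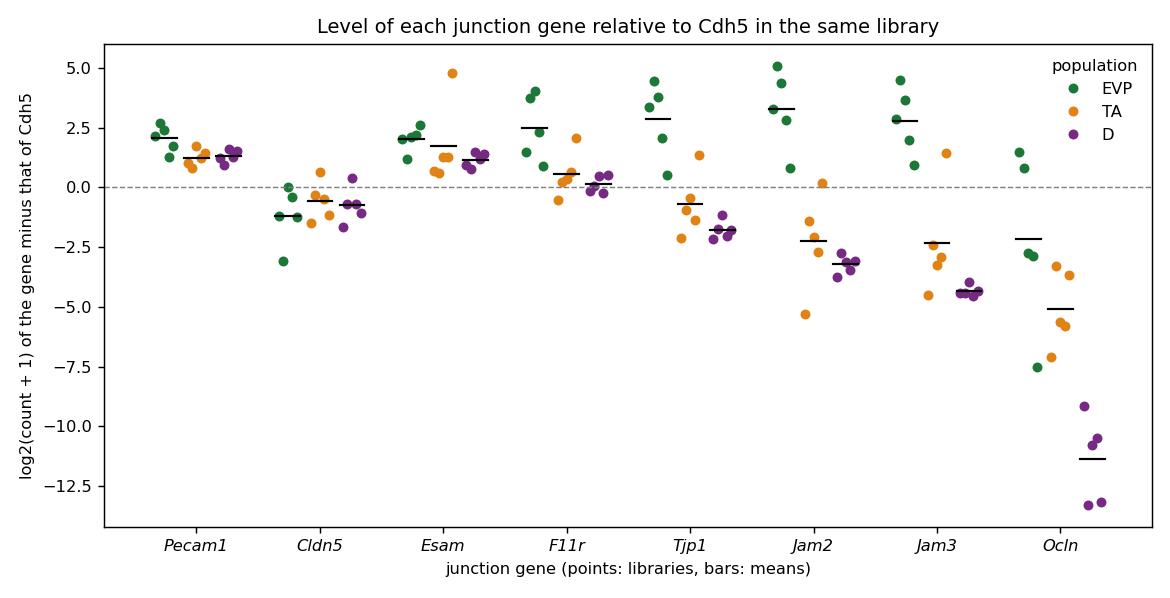
Log2(normalized count + 1) of each junction gene minus that of *Cdh5* in the same library, for EVP, TA and D. Points are libraries and bars are means, 5 libraries per population. D lies below EVP with no overlap for *F11r*, *Tjp1*, *Jam2*, *Jam3* and *Ocln*, and the TA point at 4.78 for *Esam* is library 5.

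Compared per kilobase of exon, *Esam* had the highest mean of the 9 genes in D and TA, and in EVP only with library 5. In D the order was *Esam* at 7653 ± 1921, *Cldn5* at 4428 ± 1895, *F11r* at 4013 ± 694, *Pecam1* at 3893 ± 830.0 and *Cdh5* at 2336 ± 535 normalized counts per kilobase (SD, n = 5 each). *Tjp1* followed at 365 ± 64.0, *Jam2* at 176 ± 52.8, *Jam3* at 149 ± 18.0 and *Ocln* at 1.25 ± 1.52 (SD, n = 5 each). The ranges of neighbors in this order did not overlap between *Cdh5* and *Tjp1*, between *Tjp1* and *Jam2*, and between *Jam3* and *Ocln*, and they overlapped elsewhere. D thus fell into a high group of 5 genes from *Esam* to *Cdh5*, a lower group of *Tjp1*, *Jam2* and *Jam3*, and *Ocln* near 0.

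In EVP the order of the means was another one. *Esam* was at 132 ± 155, *F11r* at 118 ± 45.4, *Jam3* at 112 ± 15.9 and *Jam2* at 85.3 ± 22.7 normalized counts per kilobase (SD, n = 5 each). *Tjp1* at 48.7 ± 12.5, *Pecam1* at 41.8 ± 32.7, *Cldn5* at 26.6 ± 23.0, *Cdh5* at 17.2 ± 16.1 followed (SD, n = 5 each), and *Ocln* had a mean of 8.85 with a range of 0 to 33.3. All neighbors overlapped, although *Jam3* was above *Jam2* and *Jam2* above *Tjp1* in 5 of 5 EVP libraries. *Esam* was above *F11r* in only 2 of 5, and its first place rested on library 5, at 395.5 normalized counts per kilobase against 143 or less in the other EVP libraries. Without that library its mean was 65.7, below those of *F11r* (115), *Jam3* (112) and *Jam2* (93.2). The summed level of the 9 genes per kilobase was 590.1 ± 211 in EVP, 6393 ± 4248 in TA and 23015 ± 4537 in D (SD, n = 5 each).

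Most genes of VE-cadherin partners were higher in D, by a smaller median difference than the 9 junction genes. Of 10 catenins and other VE-cadherin partners, all tested, 9 were higher in D than in EVP, with a median log2 difference of 1.80. *Ptprb* (VE-PTP, the phosphatase that binds VE-cadherin, also among the endothelial markers) differed by 6.06 ± 0.65, *Ptprm* by 3.30 ± 0.33 and *Jup* (plakoglobin) by 2.84 ± 0.39 on the log2 scale (SE, limma adjusted p = 2.05e-06, 8.57e-07 and 2.66e-05). The catenins *Ctnna1* and *Ctnnb1* differed by 1.66 ± 0.17 and 1.62 ± 0.16 (SE, limma adjusted p = 1.07e-06 and 8.48e-07), from EVP means of 3960 and 2300 normalized counts. The actin linker *Vcl* (vinculin) did not pass (0.26 ± 0.33, SE, limma adjusted p = 0.711). Between TA and EVP 5 of the 10 were higher in TA, and between D and TA 5 were higher in D.

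The other tight junction genes did not follow *Cldn5*. Of 22 other claudins, 11 were tested, 1 was higher in D than in EVP and 5 were lower, with a median log2 difference of -0.82. *Cldn10* was at 1.07 ± 1.79 in D and 308 ± 150 in EVP, and *Cldn1* at 10.8 ± 12.6 in D and 146 ± 85.8 in EVP (SD, n = 5 each, limma adjusted p = 1.57e-07 and 0.00088). *Cldn15* was the one higher in D, at 387 ± 202 against 106 ± 95.9 (SD, n = 5 each, limma adjusted p = 0.0288). Of 9 other tight junction membrane proteins none was higher in D and 4 were lower, among them *Clmp* (log2 difference -3.20 ± 0.29, SE, limma adjusted p = 3.27e-07) and *Cxadr* (-3.27 ± 0.69, SE, limma adjusted p = 0.00204). *Marveld2* (tricellulin), a relative of occludin at 3-cell contacts, was at 94.1 ± 44.0 in D and 21.4 ± 18.0 in EVP (SD, n = 5 each) and did not pass (limma adjusted p = 0.109).

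Markers of keratinocytes and epithelium also differed between the populations. The sum of 7 such markers (*Krt5*, *Krt14*, *Krt8*, *Krt18*, *Epcam*, *Cdh1*, *Dsp*) was 862 to 5227 normalized counts in EVP, 1263 to 58144 in TA and 23.0 to 1361 in D, and 5 of the 7 were lower in D than in EVP. TA library 2 had both the highest sum, 58144, and the highest *Ocln*, 183, while EVP library 1, with the next highest *Ocln* at 140.4, had a sum of 1622. In D libraries 1 to 5 the sums were 1361, 274, 71.9, 47.3 and 23.0, and *Ocln* was at 15.1, 0, 3.13, 8.26 and 0. The part of such cells in *Ocln* and the other claudins was not tested.

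The scaffolds split. Of 17 tight junction scaffold proteins, 4 were higher in D than in EVP and 5 were lower, with a median log2 difference of -1.13. Among those higher in D were *Magi1* (2.44 ± 0.36), *Cgnl1* (paracingulin, 1.18 ± 0.39) and *Amotl1* (1.11 ± 0.16) (log2 difference, SE, limma adjusted p = 7.4e-05, 0.0408 and 3.88e-05). *Pard3*, the polarity scaffold, was lower in D, at 29.5 ± 36.3 against 447 ± 309 (SD, n = 5 each, limma adjusted p = 0.000365), as were *Pard6g*, *Patj*, *Mpdz* and *Amotl2*. *Tjp3* did not pass (limma adjusted p = 0.417), at 20.2 ± 30.0 in D and 28.3 ± 5.82 in EVP (SD, n = 5 each). The nectins split as well, with *Nectin2* higher in D (2.06 ± 0.26, SE, limma adjusted p = 1.32e-05) and *Nectin1* and *Nectin3* lower.

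**Figure D5:**
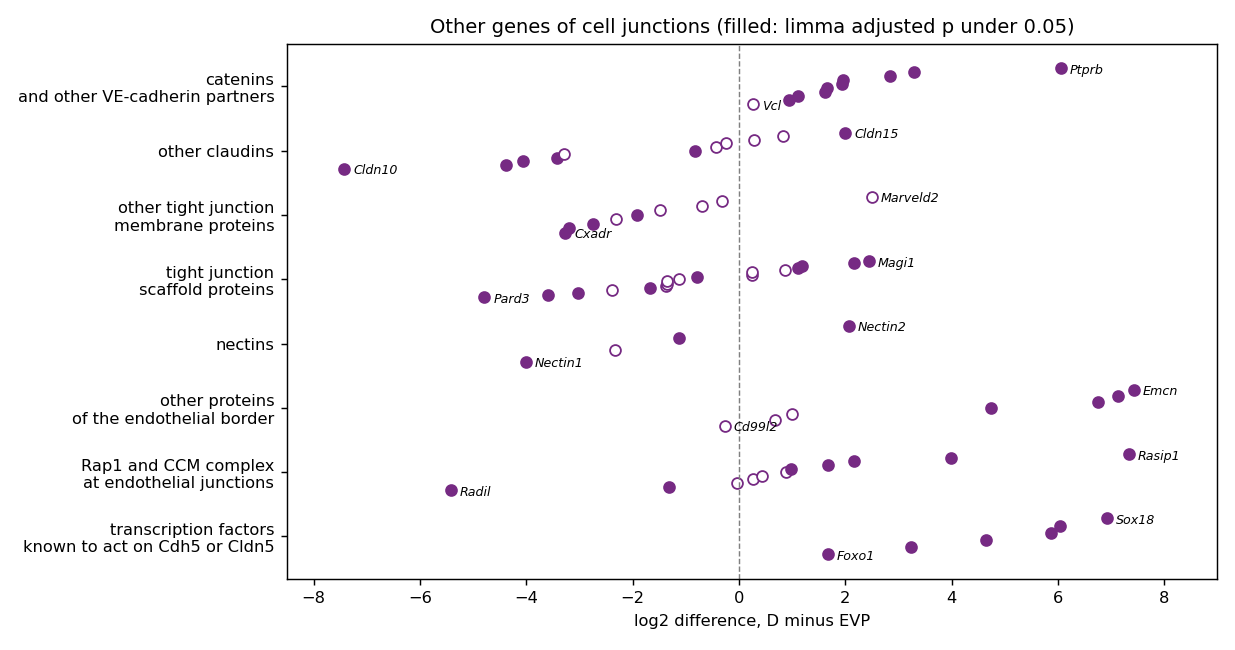
Log2 difference, D minus EVP, of other genes of cell junctions in 8 lists, 1 point per tested gene, with the lowest and highest gene of each list named. Filled points passed a limma adjusted p under 0.05. All 6 transcription factors are filled on the D side, and 5 of the 11 other claudins tested are filled on the EVP side.

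Genes of the Rap1 pathway, which steadies endothelial junctions from within, were mixed. Of 11 genes of this pathway and the CCM complex, 5 were higher in D than in EVP and 2 were lower. *Rasip1*, a Rap1 effector of blood vessel endothelium, was at 14.9 ± 7.59 in EVP, 406 in TA and 2450 ± 793 in D (mean, SD for EVP and D, n = 5 each, log2 difference, D minus EVP, 7.33 ± 0.68, SE, limma adjusted p = 4.35e-07). Its partner *Radil* went the other way, with 356 ± 110.4 in EVP and 8.45 ± 4.52 in D (SD, n = 5 each, limma adjusted p = 2.42e-07). *Heg1*, the membrane anchor of the CCM complex, was lower in D as well (log2 difference -1.32 ± 0.28, SE, limma adjusted p = 0.00235). *Krit1* and *Ccm2* did not pass (limma adjusted p = 0.933 and 0.556).

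The list of transcription factors known to act on *Cdh5* or *Cldn5* held 6 genes, and all 6 were higher in D than in EVP, with a median log2 difference of 5.26. *Erg* stands in the list of endothelial markers as well. *Sox18* differed by 6.93 ± 0.93, *Tal1* by 6.04 ± 0.76, *Erg* by 5.87 ± 0.91, *Fli1* by 4.66 ± 0.43 and *Ets1* by 3.23 ± 0.29 (log2, SE, limma adjusted p = 2.4e-05, 1.21e-05, 0.000112, 3.64e-07 and 2.79e-07). *Foxo1*, known as a repressor of *Cldn5*, was also higher in D (1.67 ± 0.45, SE, limma adjusted p = 0.0131). Between TA and EVP, 4 of the 6 passed and were higher in TA (*Ets1*, *Fli1*, *Tal1* and *Sox18*). Of 7 other proteins of the endothelial border, 4 were higher in D (*Emcn*, *Plvap*, *Icam2* and *Mcam*, 4.74 to 7.43 on the log2 scale), and *Cd34*, which the sort required in all populations, did not pass between EVP and D (0.68 ± 0.35, SE, limma adjusted p = 0.222).

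Markers of other cells varied across the populations. Of 10 endothelial markers 9 were higher in D than in EVP. The sum of the 10 was 3339 to 6344 normalized counts in EVP and 103154 to 176626 in D. *Kdr*, counted among them at 94.1 to 712 in EVP and 15216 to 26252 in D, encodes VEGFR2. The sort read VEGFR2, so the order of *Kdr* between EVP and D was set by the gate. *Tek* was the one that did not pass, at 585 to 2335 in EVP and 1689 to 3373 in D. *Erg* was at 0 in EVP library 3, and *Robo4* was at 1.31 in EVP library 2 and at most 222 in the others. The sum of 6 fibroblast markers (*Col1a1*, *Col3a1*, *Dcn*, *Lum*, *Pdgfra*, *Dpt*) was 681179 to 1251290 in EVP, 156991 to 505448 in TA and 833 to 3242 in D, and all 6 were lower in D than in EVP. This order of the sums was opposite to that of the group means of the 6 junction genes higher in D. The means of *Jam2* and *Jam3* were lowest in TA, and that of *Ocln* was highest in TA. Melanoma markers were read in every library, with sums of 29702 to 67272 in EVP, 69248 to 175671 in TA and 18157 to 47767 in D, although the sort took GFP+ cells and the injected line is not described as carrying GFP. Leukocyte marker sums were 1670.5 to 8458 in EVP, 5054 to 29679 in TA and 2504 to 7927 in D. No marker of these lists was at 0 in all libraries of a population, and the part of such cells in the junction genes was not tested.

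Platelets also carry *Pecam1*, *Esam* and *F11r*. The sum of 7 platelet and megakaryocyte markers was 449.9 to 693 normalized counts in EVP, 767 to 3121 in TA and 532 to 852 in D. The D and EVP ranges overlapped, and all TA libraries lay above all EVP libraries, as they did for *Esam* and *F11r*. Of the 7, 2 (*Pf4* and *Ppbp*) were higher in D than in EVP. The part of platelets in the 3 genes was not tested. Lymphatic markers had sums of 8341 to 18769 in EVP, 4402 to 6275 in TA and 2889 to 5646 in D. The markers in this sum did not share 1 direction. Most of the EVP sum was *Pdpn*, at 8163 to 18726, and *Pdpn* was lower in every D library. *Flt4* ran the other way, at 17.6 to 95.4 in EVP and 2543 to 4729 in D. Of the 4 lymphatic markers, 2 were called higher in D than in EVP and 1 was called lower. Schwann cell markers had sums of 451 to 1373 in EVP, 1142 to 1701 in TA and 215 to 397 in D.

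Across the 15 libraries, the genes most like each member by Pearson's r of log2(normalized count + 1) were largely other genes high in D. These libraries share populations and depth, so r describes this set and has no test. *Cdh5* was most like *Icam2* (r = 0.996), *Gimap4* (0.996) and *Pecam1* (0.993). *Cldn5* was most like *Slc16a6* (0.992), *Ushbp1* (0.990) and *S1pr1* (0.987), and *Esam* was most like *Mmp15* (0.988), *Gng2* (0.987) and *Flt1* (0.984). *Pecam1* was most like *Gimap4* (0.994), *Cdh5* (0.993) and *Afap1l1* (0.993).

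*F11r* was most like *Efna1* (r = 0.994), *Dgkz* (0.989) and *Cracr2b* (0.989), and *Tjp1* was most like *Palmd* (0.990), *Myzap* (0.976) and *Plcb1* (0.975). The other 3 had lower values. *Jam2* was most like *Sptbn1* (0.873), *Kif13a* (0.870) and *Npr2* (0.857), *Jam3* was most like *Tor1aip1* (0.880), *App* (0.858) and *Adam15* (0.857), and *Ocln* was most like *Retnlg* (0.936), *Atp8b5* (0.926) and *Cd200r3* (0.915). Among the members, r with *Cdh5* was 0.917 to 0.993 for *Pecam1*, *Cldn5*, *Esam*, *F11r* and *Tjp1*, 0.371 for *Jam2*, 0.333 for *Jam3* and -0.157 for *Ocln*.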

How the data were processed

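RNA of sorted EVP, TA and D cells was made into Smart-Seq2 and Nextera XT libraries, 5 per population. The authors mapped reads to build GRCm38 with STAR 2.5.3a, counted them per gene of Ensembl release 91 with HTSeq-count 0.6.1 (strand setting not given in the sources used here) and normalized with DESeq2 1.10.1. The deposited values are a signal, the size-factor normalized counts. They were whole multiples of 1 read per library (100% of values, tolerance 0.0001), so reads on genes were recovered. The authors' own comparison tables (fold changes and p-values) were not used. Library depth and the limit of 3 reads cover counting error only.

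The 25549 of 53465 genes whose mean over libraries reached 5 normalized counts were fitted with limma 3.58.1 on log2(normalized count + 1), which understates changes of low genes, with 1 coefficient per population, all 15 libraries and a trended variance. Tests were two-sided, with Benjamini-Hochberg adjustment over all tested genes and a threshold of 0.05. The same fit was made after subtraction of *Cdh5* in each library. The scripts were tested on simulated data. R 4.3.3, edgeR 4.0.16, DESeq2 1.42.0, scipy 1.17.1 and matplotlib 3.10.9 were used.

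The 9 members and all gene lists were chosen with earlier results of these data known. Beyond the members, genes were named where they had 1 of the 5 largest changes of a list and direction past the threshold, where a list was accounted for, and as the 3 genes with the highest Pearson's r to a member. *Ctnna1*, *Ctnnb1*, *Marveld2*, *Tjp3*, *Krit1*, *Ccm2* and *Cd34* fall outside this rule and were chosen after their values were seen. *Cd99*, *Itgam* and *Ccl21a*, which had no row or several rows, were left out of their lists. Alternatives were other pseudocounts (0.5 and 8), no minimum or a minimum mean of 20, other scalings (same total, quantile), a replicate block, edgeR and DESeq2 on reads, only the populations compared, number 1 left out of every population, and each library left out. An analysis that also left out TA library 5, and the exact permutation tests, were added after seeing the data. The values of 1 gene of the scaffold list are not reported here.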

Additional observations from a re-analysis of the deposited data

Results flagged for a closer look

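In 27 groups of 5 libraries (9 genes in 3 populations), 4 held a library far from the others, by a gap to its neighbor above 0.71 of the range of its group. Chance flags about 1 in 20 such groups if values are normally distributed, which was not tested for these counts. *Pecam1* was at 613 normalized counts in EVP library 5, against 225 or less in the other EVP libraries. That library also had the highest mural marker sum of EVP, at 28054 against at most 8419. Its endothelial marker sum was the highest of EVP too, at 6344 against at most 6276. So were its *Cdh5*, at 183 against at most 89.5, and its *Esam*, at 1134 against at most 409. *Jam3* was at 576 in D library 4, against 463 or less in the other D libraries. *Ocln* was at 140.4 in EVP library 1, against 32.7 or less in the other EVP libraries, and this value rests on 40 reads in the library with the fewest reads on genes. *Ocln* was at 183 in TA library 2, against 55.2 or less in the other TA libraries, and that library had the highest sum of keratinocyte and epithelium markers. The part of these markers in the values was not tested.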

How the results depend on the processing

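The 6 genes higher in D than in EVP passed in all 27 alternatives, and 6 or 7 of the 9 genes were called. The 6 genes higher in TA than in EVP were 0 without number 1 in every population (all genes 104 of 893), the cause was not tested, and 5 or 6 with 1 library left out. All genes called between EVP and TA were 1919 with DESeq2 and 429 to 1214 with 1 library left out, the lowest without EVP library 2, with 472 without EVP library 3 and 560 without TA library 3. The 7 genes higher in D than in TA were 4 with no minimum mean, 4 with quantile normalization, 4 with edgeR, and 4 to 7 with 1 library left out, with 4 without TA library 4 or D library 2, 3, 4 or 5. Genes higher in TA than in D, 0 in the fit of all libraries, were 1 (*Ocln*) with the same total per library, DESeq2, only the populations compared, number 1 left out, and number 1 and TA library 5 left out, and 0 to 1 with 1 library left out. Genes that differed from *Cdh5* were 5 of 8 in limma and 7 by exact permutation. The change of *Cldn5* relative to *Cdh5*, 0.44, was -0.030 without EVP library 2 and -0.030 to 0.74 with 1 library left out. The subtraction of *Cdh5* was not run in edgeR or DESeq2.

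Scaling moved the median of all genes, D minus EVP, from -0.46 to -0.04 with quantile normalization and to -0.37 with the same total, and the directions of the 9 genes held under both. The share of calls higher in TA than in EVP went from 55.4% to 75.1% with the same total. With the replicate number as a block, 7, 6 and 7 of the 9 genes were called higher in D than in EVP, in TA than in EVP and in D than in TA, 1 (*Ocln*) was higher in TA than in D, and 5 of 8 differed from *Cdh5*. Calls over all genes were 5710, 1262 and 4047 for these comparisons with the replicate block, against 4859, 893 and 3199. The block gave an adjusted p of 0.0190 for *Jam2* between EVP and D and 0.0170 for *Ocln* between TA and D. Libraries of the same number correlated at -0.14 to 0.69 in their deviations from the group means, over 0.1 in 4 of 5 pairs of EVP and TA, 4 of 5 of EVP and D and 3 of 5 of TA and D. Since the labels name nothing shared and not every pair passed 0.1, the block was kept as an alternative, although 11 of 15 libraries correlated best with their own number. The ratio of D to EVP means, leaving out 1 EVP or D library, was calculated after seeing the data, and moved by over 1.5 times for *Cdh5*, *Pecam1* and *Esam* without EVP library 5 and for *Ocln* without EVP or D library 1.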
